A study of Mus musculus with 79 samples.

Results

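The mPFC of unstressed mice was compared 7 days after a single injection of ketamine or saline. The comparison covers 20 of the 79 libraries of the series, chosen by region, stress group and treatment in the sample labels, with 10 ketamine-treated and 10 saline-treated mice. The study paired chronic social defeat stress (CSDS) with a ketamine injection in group-housed mice that were tracked in the Social Box (SB), a seminatural arena for 4 mice, and sequenced bulk RNA of the mPFC and the ventral hippocampus (vHipp). All 20 mice here were unstressed controls (CTRL), wild-type males of the outbred CD-1 strain, aged 9 to 10 weeks at the start, and all had spent 4 baseline days in the SB before the injection. Ketamine was given as the racemate at 10 mg/kg, and saline was the vehicle control. The tissue was taken with a punch from frozen slices, so each library mixes the cell types under the punch. Social rank and SB were not used here.

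Ketamine blocks the NMDA receptor, the glutamate-gated calcium channel formed by GluN1 with GluN2 or GluN3 subunits. In current models, the block frees pyramidal cells from inhibition for a short time, and the resulting burst of glutamate acts through AMPA receptors, BDNF with its receptor TrkB, and mTOR, the kinase that drives local protein synthesis, to build synapses. Ketamine itself is cleared within hours, so transcripts measured after a week bear on the lasting state of the tissue and not on the acute drug. Immediate early genes such as Fos, Egr1 and Npas4 respond to neuronal activity within minutes to hours, and their level reports activity near the time of death.

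Total counts of the 20 libraries lay between 11726129 and 34135805, with a median of 19962126, and 24352 to 28355 genes had at least 1 read. Total counts, genes detected, the share of mitochondrial reads and the share of the 20 most abundant genes did not separate the treatments (two-sided permutation tests, adjusted p = 0.333 to 0.35). Markers of cortical excitatory neurons were present in all 20 libraries. Slc17a7, the vesicular glutamate transporter of cortical projection neurons, lay between 1273 and 1761 CPM (a read count scaled to library size, with TMM correction for composition), and Tbr1, a transcription factor of deep cortical layers, lay between 117.1 and 208 CPM. Summed over 10 excitatory markers, the level was 2748 ± 168 CPM in ketamine mice and 2694 ± 228 CPM in saline mice (mean ± SD, n = 10 each).

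No gene passed an adjusted p of 0.05 with edgeR's quasi-likelihood test and Benjamini-Hochberg adjustment, which is 0% of the 28993 genes tested, and the smallest adjusted p was 0.997. Without adjustment, 3.64% of genes had a p under 0.05, of which 505 (1.74% of genes tested) were higher and 551 (1.9%) lower with ketamine. DESeq2 and limma-voom also gave 0 adjusted calls, with 772 and 962 genes under an unadjusted 0.05. No gene had ketamine and saline mice that did not overlap (0 of 28993). The first 2 of 5 principal components, over the 500 most variable genes, held 25.5% and 20.8% of the variance, and neither separated the treatments (permutation test, adjusted p = 0.744 and 0.966). The component of 25.5% had Mgp, Tagln, Acta2, Lum and Ogn, genes of vessel walls and connective tissue, at its low end. At its high end were Cwc22, Prss56, Nxph3 and Rprm. That of 20.8% had the myelin genes Mobp, Ermn and Mal at its high end and Gm45844, Gm47015 and Prss56 at its low end.

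The data bound the size of the differences well for expressed genes. Of 15703 genes with a mean of at least 1 CPM, 14578 (92.8%) had a 95% interval of the log2 fold change (LFC) that lay within a 1.5-fold difference in either direction, and 11065 (70.5%) within 1.25-fold. For the 13290 genes below 1 CPM, 663 (4.99%) were bounded within 1.5-fold, and a difference of that size was mostly not detectable at this depth. Gapdh, a glycolytic enzyme used as a qPCR reference, had an LFC of -0.01 ± 0.07 (SE). Rpl13, a ribosomal protein and the other qPCR reference, had an LFC of -0.13 ± 0.07 (unadjusted p = 0.0813).

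The direct target of the drug was examined first. The NMDA receptor list held 7 subunits, of which 0 passed an unadjusted p of 0.05, 5 were higher in mean and 2 lower, and the median LFC was 0.03, beside -0.00 over all genes tested. That median turned to -0.01 without ketamine mouse 23 and to -0.00 without saline mouse 28, so it carries no direction. Grin1, the obligatory GluN1 subunit, lay between 529 and 684 CPM in ketamine mice (median 635) and between 563 and 669 CPM in saline mice (median 609). The ranges overlapped almost fully, and the LFC of Grin1 was 0.03 ± 0.04 with a 95% interval from -0.05 to 0.12. Grin2b, the GluN2B subunit prominent at extrasynaptic sites, lay between 569 and 842 CPM with ketamine (median 699) and between 516 and 789 CPM with saline (median 642). Its LFC was 0.13 ± 0.09 (unadjusted p = 0.154), the most positive of the list. Grin2a had an LFC of 0.10 ± 0.08, and Grin2c, the subunit of astrocytes and some interneurons, had an LFC of -0.11 ± 0.09. Per kilobase of gene length, ketamine mice held 64.8 CPM of Grin1, 28.6 of Grin2b, 13.2 of Grin2a, 10.4 of Grin2c, 6.56 of Grin3a, 4.03 of Grin2d and 0.0566 of Grin3b, so GluN1 was the most abundant transcript of the family per length and GluN3B was close to the detection limit.

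Differences were also small for the receptors downstream of the glutamate burst. Of 9 AMPA and kainate subunits, 0 passed the unadjusted threshold, 8 were higher in mean, and the median LFC was 0.05. Gria1, the GluA1 subunit that is inserted at strengthened synapses, lay between 418 and 534 CPM with ketamine (median 465) and between 413 and 514 CPM with saline (median 479), with an LFC of 0.00 ± 0.05. Its 95% interval ran from -0.10 to 0.10, and that of Gria2, the subunit that makes AMPA receptors impermeable to calcium, from -0.07 to 0.28. Grik2, a kainate receptor subunit, had the smallest p of these 9 genes, with an LFC of 0.12 ± 0.06 (unadjusted p = 0.0582). Of 7 metabotropic glutamate receptors, 6 were higher in mean with a median LFC of 0.09, and Grm2, the presynaptic autoreceptor mGluR2, had an LFC of -0.00 ± 0.06. Of 7 glutamate transporters, 5 were higher in mean with a median LFC of 0.02. Of 12 GABA-A receptor subunits, 9 were higher in mean with a median LFC of 0.04, and Gabrg3 had the smallest p (LFC 0.18 ± 0.10, unadjusted p = 0.0749). Without 5 libraries that stand apart, named with the cell type markers, the GABA-A median was -0.00 with 4 of 12 higher. None of these 28 other subunits and receptors of the AMPA and kainate, metabotropic and GABA-A lists passed the unadjusted threshold, and the 95% interval lay within 1.5-fold for 9 of 9, 7 of 7 and 12 of 12 genes.

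**Figure D1:**
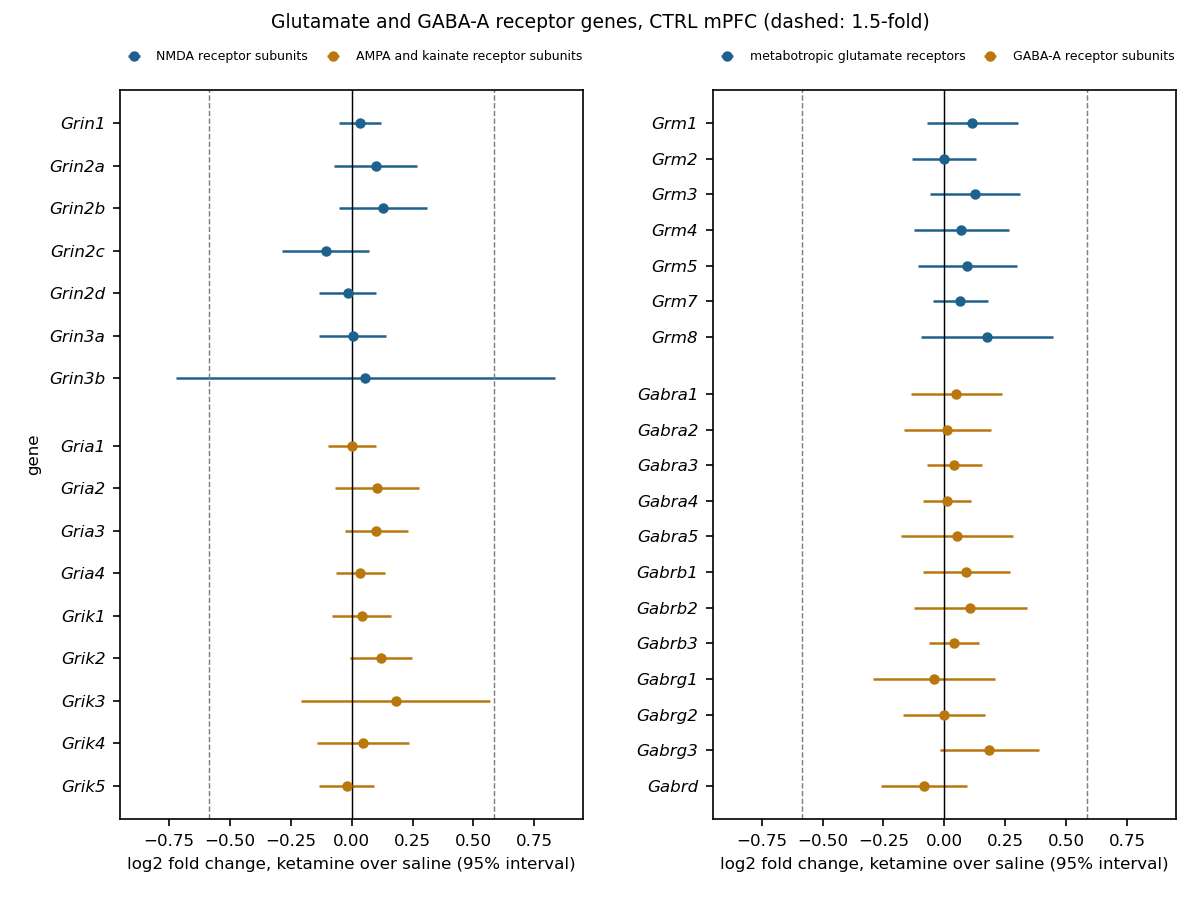
LFC of ketamine over saline in the mPFC of CTRL mice for 7 NMDA and 9 AMPA and kainate receptor subunits (left) and 7 metabotropic glutamate receptors and 12 GABA-A receptor subunits (right). Points are the edgeR estimates, bars are 95% intervals, and dashed lines mark 1.5-fold. Every bar crosses 0, and only that of Grin3b, listed below 1 CPM, reaches beyond 1.5-fold.

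The signalling genes named in models of ketamine action were close to 0 as well. The list of BDNF, TrkB and mTOR signalling held 26 genes, with 16 higher and 10 lower in mean, a median LFC of 0.02, and 26 of 26 intervals within 1.5-fold. Bdnf lay between 15.2 and 24.7 CPM with ketamine (median 20.7) and between 16.7 and 24.6 CPM with saline (median 19.9), and its LFC was 0.05 ± 0.09. Mtor had an LFC of 0.05 ± 0.05, Ntrk2 (TrkB) 0.03 ± 0.05, and Eef2k, the kinase of elongation factor 2 that NMDA receptor activity at rest keeps active, 0.04 ± 0.05. A single member passed the unadjusted threshold, 1 of 26 or close to the 3.64% of all genes. This was Ddit4 (REDD1), an inhibitor of mTOR complex 1 that is induced by glucocorticoids and energy stress. Ddit4 lay between 15.4 and 22.5 CPM with ketamine (median 21.0) and between 18.6 and 28.8 CPM with saline (median 22.6). The groups overlapped, and 5 saline mice lay above the highest ketamine mouse. Its LFC was -0.18 ± 0.08 (unadjusted p = 0.0313, adjusted p = 0.997 with edgeR), and the threshold was lost in 6 of 29 alternatives, on leaving out any single mouse among ketamine mice 21 and 31 or saline mice 27, 28 and 30, and without the 5 libraries that stand apart (p up to 0.11).

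Synaptic structure genes were examined because new synapses are the proposed lasting trace of the drug. Of 18 presynaptic vesicle and active zone genes, 16 were higher in mean, the median LFC was 0.05, and 0 passed the unadjusted threshold. The highest was Pclo (Piccolo), a giant scaffold of the active zone, at 0.21 ± 0.12 (unadjusted p = 0.0872), followed by its partner Bsn (Bassoon) at 0.15 ± 0.10 and Rims1, which docks vesicles, at 0.13 ± 0.08. Vesicle proteins such as Syp and Snap25 had LFCs of 0.02 ± 0.05 and 0.01 ± 0.06. Of 23 postsynaptic scaffold genes, 15 were higher in mean, the median LFC was 0.02, and again 0 passed. Homer1, which links metabotropic glutamate receptors to the scaffold, had an LFC of 0.17 ± 0.09 (unadjusted p = 0.0819), and Dlg4 (PSD-95) had -0.02 ± 0.06. Over all genes tested, 48.5% were higher in mean and the median LFC was -0.00. Genes of a list can vary together between mice, so the count of members on the same side is a description and not a test.

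Immediate early genes had the most positive median of the 14 pathway lists. Of 23 genes, 19 were higher in mean, the median LFC was 0.12, and 2 passed an unadjusted p of 0.05, beside 3.64% of all genes. Npas4, an activity-induced transcription factor that regulates inhibitory synapses, lay between 13.6 and 28.6 CPM in ketamine mice (median 18.4) and between 8.17 and 21.9 CPM in saline mice (median 13.5). All 10 ketamine mice lay above the saline median, and 2 lay above the highest saline mouse. The LFC of Npas4 was 0.41 ± 0.17 (unadjusted p = 0.0243, adjusted p = 0.997 with edgeR). Egr1, a zinc finger factor on chromosome 18 (34859823 to 34864984, plus strand, GRCm38), lay between 120 and 229 CPM with ketamine (median 163) and between 109.2 and 175 CPM with saline (median 132.9). For 5 ketamine mice, the level exceeded that of every saline mouse, and the LFC was 0.32 ± 0.15 (unadjusted p = 0.0427). Fos, the founding member of the AP-1 family, had the largest LFC of the list at 0.58 ± 0.30, but its ranges of 3.54 to 18.1 CPM and 2.96 to 13.4 CPM overlapped, with 3 ketamine mice above the highest saline mouse (unadjusted p = 0.0638). Arc, which acts in AMPA receptor endocytosis, had an LFC of 0.26 ± 0.28, and Jun one of 0.04 ± 0.08. Npas4 lost the unadjusted threshold in 2 of 29 alternatives, without saline mouse 30 (p = 0.0546) and without ketamine mouse 40 (p = 0.0721). Egr1 lost it in 13 of 29, with limma-voom, in both fits with the run of mouse numbers, and on leaving out any single mouse among ketamine mice 25, 26, 31, 32 and 36 or saline mice 24, 27, 29, 33 and 39 (p up to 0.0992). The median of the list lay between 0.08 and 0.17 over all other settings and left-out mice.

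A further list held 20 other reported targets of ketamine and its metabolites, namely channels and receptors outside the glutamate system. Of these, 18 were higher in mean with a median LFC of 0.06, and 1 of 20 passed the unadjusted threshold, close to the 3.64% of all genes. Kcnq3, a subunit of the M-type potassium channel that damps repetitive firing, lay between 197 and 295 CPM with ketamine (median 254) and between 173 and 247 CPM with saline (median 228). The groups overlapped, with 5 ketamine mice above the highest saline mouse and an LFC of 0.16 ± 0.07 (unadjusted p = 0.0397, adjusted p = 0.997 with edgeR). Drd2, the dopamine D2 receptor, had an LFC of 0.46 ± 0.28 at levels between 0.612 and 4.74 CPM. Kcnq3 lost the unadjusted threshold in 8 of 29 alternatives, on leaving out any single mouse among ketamine mice 21, 25, 31, 34 and 40 or saline mice 24 and 27, and without the 5 libraries that stand apart (p up to 0.0939).

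**Figure D2:**
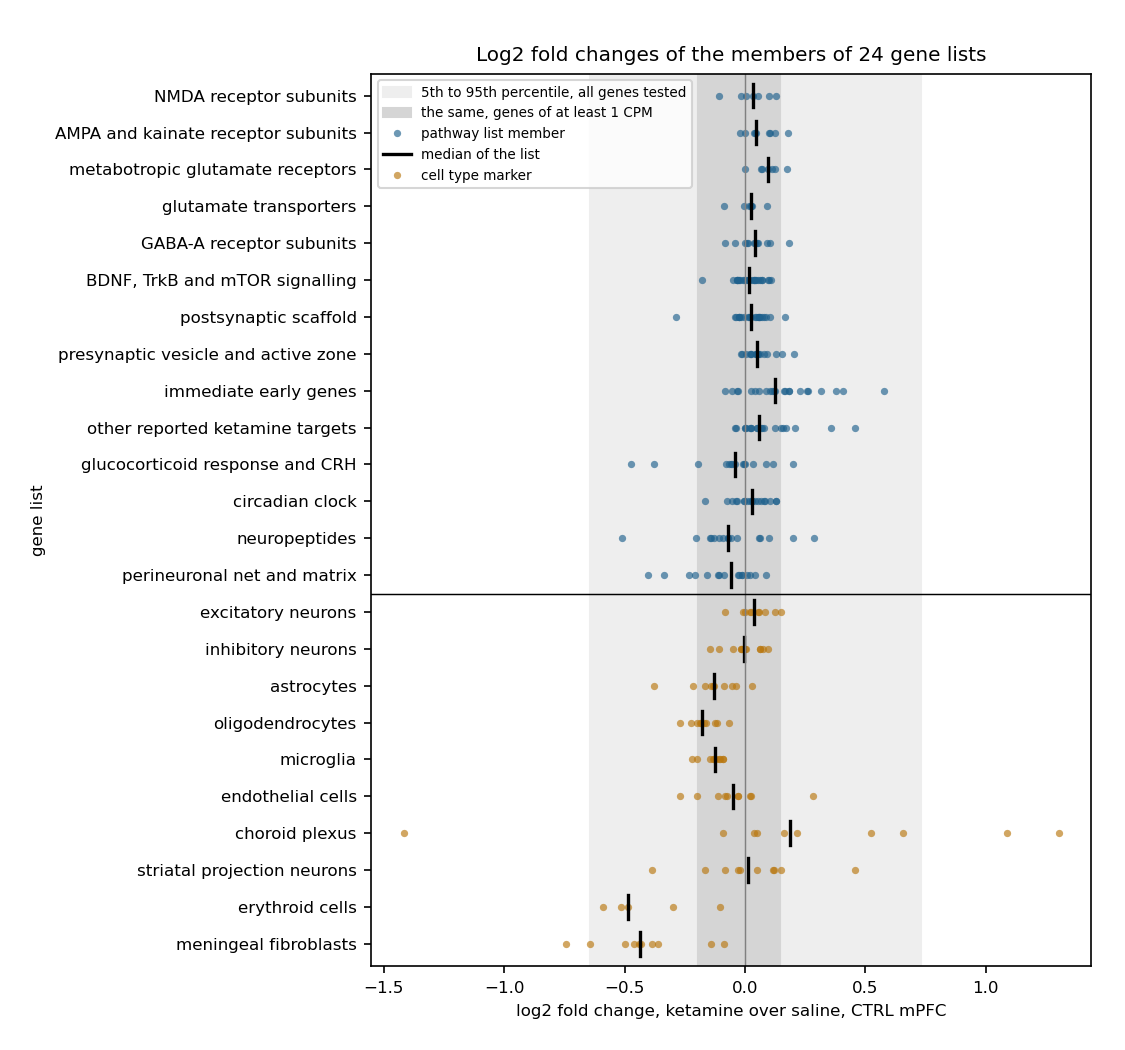
LFC of ketamine over saline for the members of 14 pathway lists (blue) and 10 lists of cell type markers (orange), with the median of each list as a black bar. The light and dark grey bands span the 5th to 95th percentile over all 28993 genes tested and over the 15703 genes of at least 1 CPM. Medians of the pathway lists lie between -0.07 and 0.12, and the lowest medians belong to erythroid and meningeal markers.

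The remaining pathway lists showed no member past the unadjusted threshold. Of 15 glucocorticoid response and CRH genes, 10 were lower in mean (median LFC -0.04), and Fkbp5, a co-chaperone of the glucocorticoid receptor that is induced by corticosterone, had an LFC of -0.00 ± 0.08. Of 19 clock genes, 12 were higher (median 0.03), with Per2 at 0.13 ± 0.09. Of 16 neuropeptide genes, 11 were lower (median -0.07), with Sst at 0.06 ± 0.10, Vip at -0.14 ± 0.10 and Cck at -0.09 ± 0.08. Of 16 genes of the perineuronal net, the matrix around fast-spiking interneurons, 12 were lower (median -0.06), with Acan at -0.33 ± 0.31. The medians of the glucocorticoid and neuropeptide lists turned to 0.01 when the same 5 libraries were left out. That of the glucocorticoid list also turned to 0.01, with 8 of 15 higher, without saline mouse 22 alone.

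The leading single genes were taken as the 12 of smallest unadjusted p in each direction among the 15703 genes of at least 1 CPM. They are the top of a ranked list in which no gene passed the adjusted test, and their values are a description. Of the 12 higher genes, 8 are protein-coding by the GENCODE annotation and 4 are not, against 10 and 2 of the lower genes. Those 2 are the pseudogene Rps4x-ps and Ptpmt1, which this annotation types as a processed transcript although it is named for a protein. The median level was 2.48 CPM for the higher and 8.61 CPM for the lower genes, beside 21.1 CPM for all 15703. Without the 5 libraries that stand apart, 6 of the 24 no longer had an unadjusted p under 0.05, namely Muc3a (LFC 0.24, p = 0.102), D930016D06Rik (0.16, p = 0.118), Gm37274 (0.39, p = 0.103), Nktr (0.11, p = 0.0685), Ptgds (-0.58, p = 0.0695) and Uqcc3 (-0.12, p = 0.0961). The LFC of Muc3a, D930016D06Rik and Ptgds was over 1.5 times smaller in that fit.

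**Figure D3:**
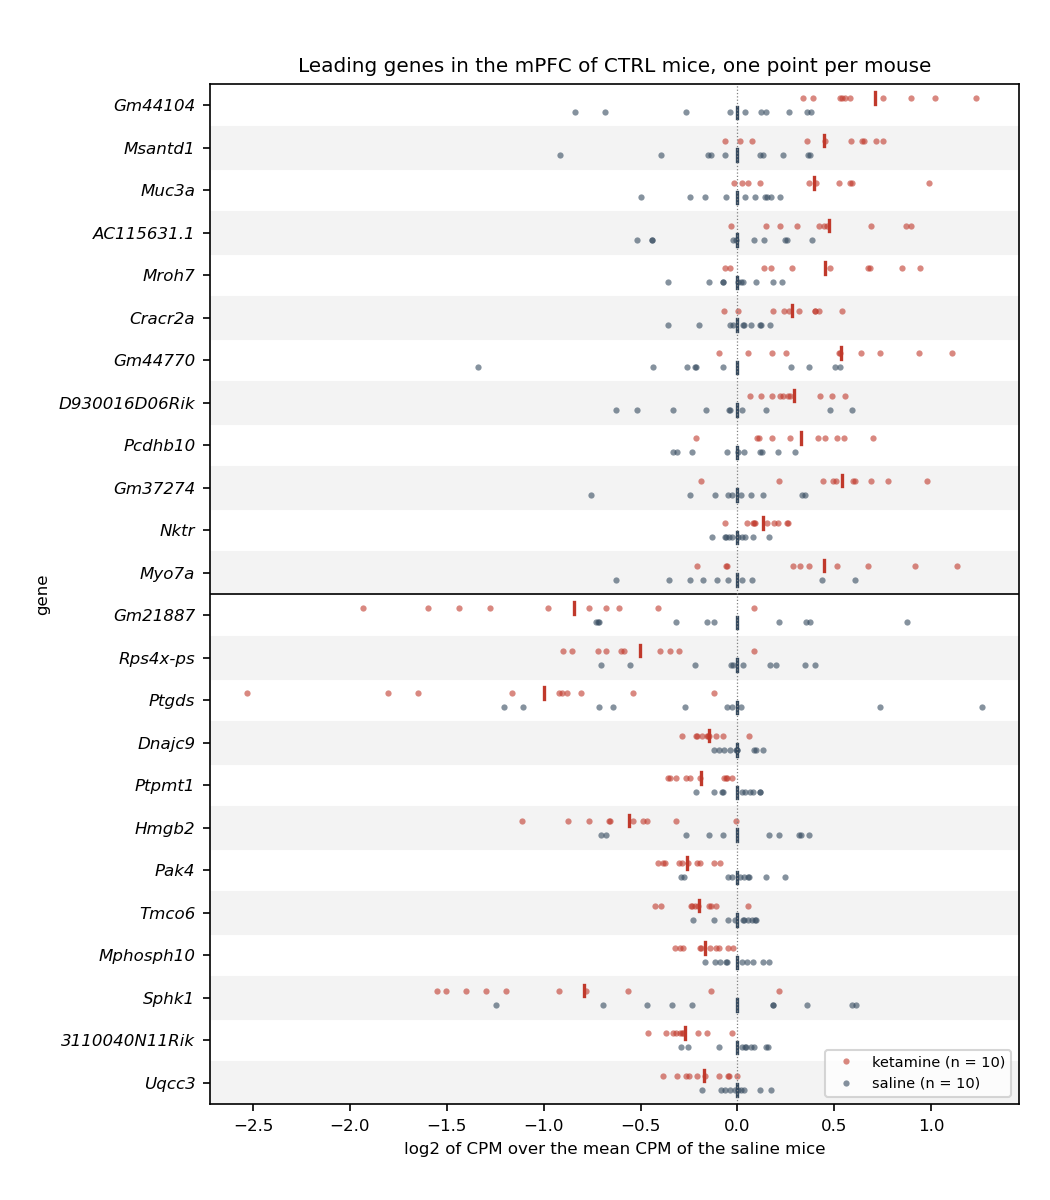
CPM of each CTRL mPFC library on a log2 scale, relative to the mean CPM of the 10 saline mice, for the 12 leading genes higher (top) and the 12 lower (bottom) with ketamine. Points are mice and bars are group means. Ketamine (red) and saline (dark) mice overlap for each of the 24 genes.

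Among the higher genes, Gm44104, an unconfirmed transcript model on chromosome 6 (99658442 to 99662218, minus strand) within the span of Eif4e3, lay between 1.00 and 1.86 CPM in ketamine mice (median 1.17) and between 0.442 and 1.03 CPM in saline mice (median 0.837). In all, 9 of 10 ketamine mice lay above the highest saline mouse, and the LFC was 0.71 ± 0.21 (unadjusted p = 0.00119). The transcript sits on the strand of Eif4e3, so its reads cannot be told apart from unspliced reads of the host gene. Msantd1, whose span overlaps that of Htt on the same strand, had an LFC of 0.45 ± 0.14, and AC115631.1, which overlaps Ankhd1 and Eif4ebp3 on the same strand, had 0.48 ± 0.16. Muc3a, a membrane mucin of epithelia, had an LFC of 0.40 ± 0.13. Cracr2a, a calcium sensor that regulates store-operated calcium entry, lay between 2.41 and 3.67 CPM with ketamine (median 3.09) and between 1.97 and 2.84 CPM with saline (median 2.58), with 8 ketamine mice above the highest saline mouse. Its LFC was 0.28 ± 0.10 (unadjusted p = 0.00476), and its span overlaps that of Gm43634 on the same strand. Nktr, a cyclophilin-related protein with splicing factor motifs, was the most abundant of the 12 by CPM, at 227 ± 15.9 with ketamine and 207 ± 12.2 with saline (SD, n = 10 each), and had the smallest LFC of the 12 at 0.13 ± 0.05 (unadjusted p = 0.0103). The long noncoding RNA D930016D06Rik, which overlaps a gene without a symbol on the same strand, had an LFC of 0.29 ± 0.10. Myo7a, an unconventional myosin of sensory cells, had 0.44 ± 0.17, or 0.71 without the 5 libraries that stand apart. Pcdhb10 belongs to the clustered protocadherins, whose similar copies can share reads, and it overlaps Gm42416, Gm37013 and Gm37388 on the same strand. Its LFC of 0.32 ± 0.12 is uncertain for those reasons, and shared reads were not measured.

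The lower genes were led by Gm21887, which RefSeq lists with the synonym Erdr1 and which lies at the end of the X chromosome (170009659 to 170019281, plus strand). It lay between 0.736 and 2.98 CPM in ketamine mice (median 1.54) and between 1.69 and 5.15 CPM in saline mice (median 2.55). At the low end, 6 ketamine mice lay below the lowest saline mouse, and the LFC was -0.88 ± 0.24 (unadjusted p = 0.000568, adjusted p = 0.997 with edgeR), the smallest unadjusted p of the 15703 genes. Near-identical copies of this sequence can share reads, so its count is uncertain. Dnajc9, a histone co-chaperone, was at 20.2 ± 1.33 CPM with ketamine and 22.4 ± 1.30 CPM with saline, Ptpmt1, a mitochondrial phosphatase of cardiolipin synthesis, at 16.3 ± 1.47 and 18.6 ± 1.41 CPM, and Uqcc3, an assembly factor of respiratory complex III, at 12.5 ± 1.09 and 14.1 ± 0.995 CPM. Mphosph10, a protein of ribosome biogenesis, had an LFC of -0.17 ± 0.05, and Hmgb2, a chromatin protein of dividing cells, -0.56 ± 0.17. Pak4, a kinase of the actin cytoskeleton whose span overlaps that of Samd4b on the same strand, had -0.26 ± 0.08. Rps4x-ps is a processed pseudogene that can share reads with Rps4x, and its LFC of -0.49 ± 0.14 is uncertain.

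Ptgds had the largest LFC of the 12 lower genes, followed by Gm21887 and Sphk1. Ptgds encodes lipocalin-type prostaglandin D synthase, a secreted enzyme that meningeal cells, choroid plexus and oligodendrocytes make in the brain. It lies on chromosome 2 (25466709 to 25470046, minus strand) with no overlapping gene in the table. Ptgds lay between 51.1 and 272 CPM in ketamine mice (median 157) and between 128.2 and 709 CPM in saline mice (median 265). Of the ketamine mice, 3 lay below the lowest saline mouse and 5 saline mice above the highest ketamine mouse, and the LFC was -0.997 ± 0.30 (unadjusted p = 0.00171, adjusted p = 0.997 with edgeR). Sphk1, the kinase that makes sphingosine 1-phosphate, lay between 0.698 and 2.38 CPM with ketamine (median 0.986) and between 0.862 and 3.13 CPM with saline (median 2.03), and had an LFC of -0.74 ± 0.24 (unadjusted p = 0.00385). Without saline mouse 24 the LFC of Ptgds was -0.75, and with 5 libraries that stand apart left out it was -0.58, past the unadjusted threshold no longer (p = 0.0695).

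Markers of meningeal fibroblasts were lower in mean beside Ptgds. All 10 of 10 markers had a negative LFC, from -0.09 for Col3a1 to -0.74 for Ogn, with a median of -0.44, and 0 of 10 passed an unadjusted p of 0.05. Their summed level lay between 37.0 and 206 CPM in ketamine mice (median 90.8) and between 69.3 and 327 CPM in saline mice (median 112.8), and the groups overlapped (log2 difference -0.48, permutation test, two-sided, p = 0.16, adjusted p = 0.757 over 10 lists). The median LFC of the list was -0.21 without saline mouse 30 and -0.22 without the 5 libraries that stand apart. Across the 20 mice, log2 Ptgds followed the log2 summed meningeal level (Pearson r = 0.847, p = 2e-05, Spearman rho = 0.771, p = 1e-04, permutation tests), where 2e-05 is the smallest p that these resamples can give. Within ketamine mice r was 0.949 and within saline mice 0.757 (n = 10 each, permutation p = 2e-05 and 0.0157), and without the 2 libraries farthest from the median r was 0.751 (permutation p = 0.00012). The summed level of oligodendrocyte markers did not track Ptgds (r = 0.0297, rho = 0.144, permutation p = 0.902 and 0.547). These 8 relations were computed after the values were seen, and the adjusted p of the 4 with the meningeal sum lay between 8e-05 and 0.0313 for r. The rank correlation within saline mice did not pass (rho = 0.661, n = 10, adjusted permutation p = 0.0848). In a bulk sample, fewer cells of a type and less RNA per cell cannot be told apart, and the part of meningeal tissue in the difference of Ptgds was not tested.

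**Figure D4:**
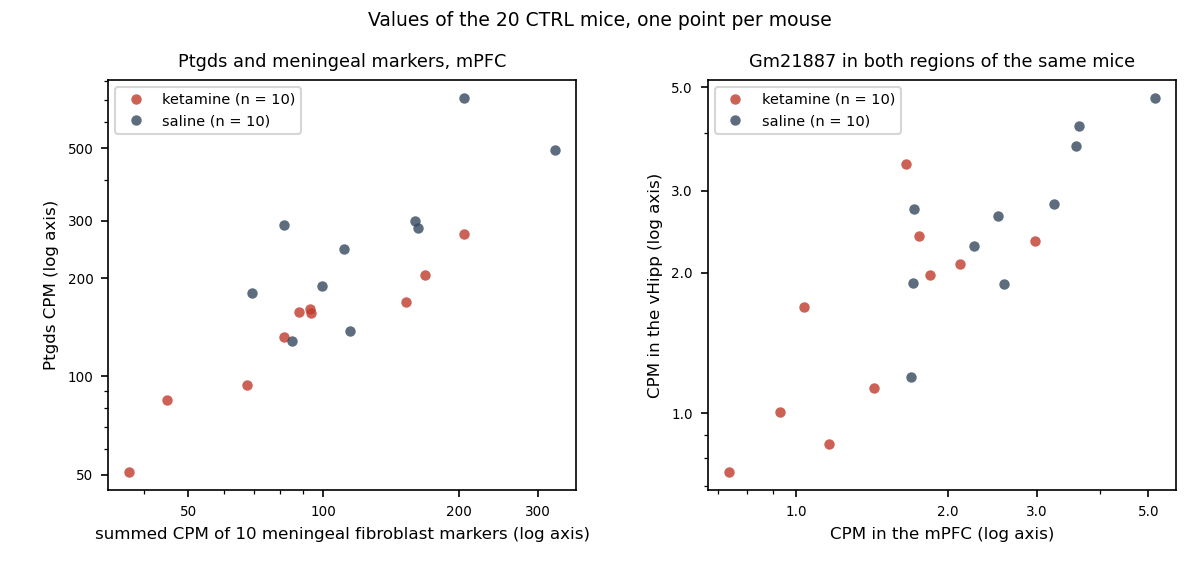
Left, CPM of Ptgds against the summed CPM of 10 meningeal fibroblast markers in the mPFC of the 20 CTRL mice. Right, CPM of Gm21887 in the mPFC and in the vHipp of the same mice. Both panels have log axes, with ketamine mice in red and saline mice in dark grey. Ptgds follows the meningeal level over all mice (r = 0.847), with r = 0.949 among ketamine and 0.757 among saline mice, and a mouse with a high Gm21887 level in the mPFC has a high level in the vHipp (r = 0.843).

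The other cell type lists differed by less than the spread between mice. Across 10 marker lists the adjusted permutation p lay between 0.757 and 0.912. All 10 microglial markers had a negative LFC (median -0.12), 9 of 10 astrocyte markers did (median -0.13), and all 5 erythroid markers did (median -0.49), with 0 members past the unadjusted threshold in each list. These medians moved with single libraries, to -0.06 for microglia without saline mouse 24, to -0.07 for astrocytes without saline mouse 30 and to -0.23 for erythroid cells without saline mouse 24. Without the 5 libraries that stand apart, they were -0.11, -0.04 and -0.14. C1qa, the complement component with the smallest p of the microglial list, had an LFC of -0.22 ± 0.12 (unadjusted p = 0.0832), and Gfap one of -0.38 ± 0.31. For oligodendrocytes, all 10 markers had a negative LFC (median -0.18), but the median of the summed level was 1736 CPM with ketamine and 1390 CPM with saline. Saline mouse 22, at 6834 CPM against 3165 CPM for the next saline mouse, set that direction, and without it all 10 markers had a positive LFC (median 0.21). Excitatory and inhibitory neuron markers had medians of 0.04 and -0.01. In all, 5 libraries stood apart from their group, namely ketamine mouse 23 in depth, ketamine mouse 34 and saline mouse 24 in choroid plexus markers, saline mouse 22 in oligodendrocyte markers and saline mouse 30 in meningeal markers. Without these 5, there were again 0 adjusted calls and 894 genes at an unadjusted p under 0.05.

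**Figure D5:**
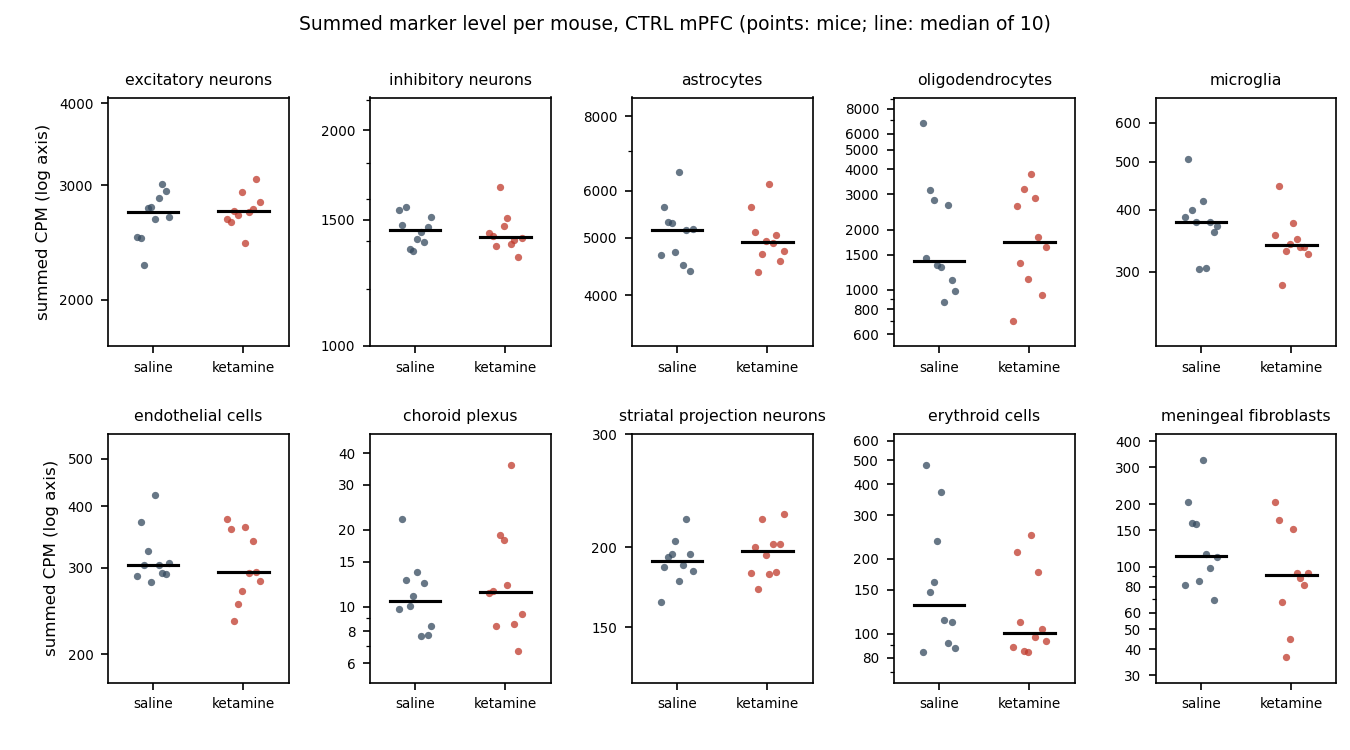
Summed CPM of each cell type marker list in the 10 saline and 10 ketamine libraries of the CTRL mPFC, on log axes that do not start at 0. Points are mice and lines are medians of 10. The groups overlap in all 10 panels, and single libraries stand apart for oligodendrocyte, choroid plexus and meningeal markers.

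The largest LFCs among genes of at least 1 CPM came from few libraries. Avp and Oxt, the hypothalamic hormones vasopressin and oxytocin, had LFCs of 1.78 ± 0.69 and 1.52 ± 0.67 (unadjusted p = 0.0131 and 0.0278). Avp lay between 0.0442 and 7.02 CPM with ketamine (median 0.624) and between 0.0516 and 1.63 CPM with saline (median 0.263), and 2 ketamine mice lay above the highest saline mouse. Without ketamine mouse 25, the LFC was 1.12 for Avp and 0.63 for Oxt (unadjusted p = 0.107 and 0.33), and without ketamine mouse 34 neither passed the unadjusted threshold (p = 0.0532 and 0.0661). Both also lost it without the 5 libraries that stand apart, in both fits with the run of mouse numbers (p = 0.0672 and 0.209 for Avp, 0.194 and 0.343 for Oxt) and with limma-voom, where the LFC was 0.71 for Avp and 0.53 for Oxt (p = 0.343 and 0.446). Ano2, a calcium-activated chloride channel, had an LFC of 1.32 ± 0.56 that rested on ketamine mouse 26 with 16.3 CPM, and it was -0.49 without that mouse. Ttr, the thyroid hormone carrier of the choroid plexus, had 1.30 ± 0.81 and was listed between 0 and 24.3 CPM with ketamine and between 0 and 10.8 CPM with saline. Its LFC was -0.08 without ketamine mouse 34 and 3.25 without saline mouse 24 (unadjusted p = 0.000616, adjusted p = 1.00 with edgeR), so its size rests on those libraries. H2-T22, a nonclassical MHC class I gene with close paralogs, had -1.28 ± 0.74 through saline mouse 22 with 9.40 CPM, and -0.04 without that mouse. Of 10 choroid plexus markers, 8 were higher and 2 lower in mean with a median LFC of 0.19, which was -0.00 without ketamine mouse 26 and 0.08 without ketamine mouse 34, and their summed level did not separate the treatments (log2 difference 0.18, permutation p = 0.528). Against that direction, Kcnj13, a potassium channel of the choroid plexus, was the single choroid plexus marker past the unadjusted threshold (LFC -1.42 ± 0.50, unadjusted p = 0.00607), but it lay below 1 CPM in all but 1 of the saline and all of the ketamine mice.

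The same mice had libraries of the vHipp, which the choice of leading genes did not use. In the vHipp of CTRL mice, ketamine against saline gave 0 adjusted calls and 836 of 28991 genes at an unadjusted p under 0.05, or 2.88%. Of the 24 leading mPFC genes, 21 had the same sign there, beside 54.2% of all genes tested in both regions, and 5 of 24 had an unadjusted p under 0.05 in the same direction. The animals are the same, so the vHipp gives other libraries but not an independent set of mice. Ptgds lay between 49.7 and 155 CPM in ketamine mice (median 82.4) and between 72.2 and 299 CPM in saline mice (median 185), with an LFC of -1.004 ± 0.30 in the vHipp (unadjusted p = 0.00189, adjusted p = 1.00 with edgeR). Sphk1 had an LFC of -0.76 ± 0.23 there (unadjusted p = 0.00205), Gm21887 -0.67 ± 0.24, Pcdhb10 0.30 ± 0.11 and Mroh7 0.39 ± 0.16. The meningeal list in the vHipp had a median LFC of -0.43 with 9 of 10 markers lower and 3 of 10 at an unadjusted p under 0.05, while its summed level was 45.3 to 96.05 CPM with ketamine and 47.3 to 119.2 CPM with saline (permutation p = 0.425).

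The level of a mouse in the mPFC was set against that in the vHipp for those 5 genes, a comparison chosen after the values were seen. The genes differed between treatments in the same direction in both regions, which by itself favours a positive correlation over all 20 mice. Over 20 mice the correlation passed the threshold for Gm21887 and Mroh7. For Gm21887 Pearson r was 0.843 and Spearman rho 0.791 (permutation p = 2e-05 and 0.00016, adjusted over 20 relations 4e-04 and 0.0032), and without the 2 farthest mice r was 0.756. The correlation was present within ketamine mice (r = 0.757, n = 10, adjusted permutation p = 0.0431) and within saline mice (r = 0.826, n = 10, adjusted permutation p = 0.0141), but by rank it passed only within saline mice (rho = 0.842, adjusted permutation p = 0.0243, against rho = 0.745 and 0.067 for ketamine mice). Mroh7 gave r = 0.593 and rho = 0.549 over 20 mice (adjusted permutation p = 0.0163 and 0.0655), with r = 0.59 without the 2 farthest mice (adjusted permutation p = 0.0261). Neither treatment group passed the threshold on its own, with r = 0.481 within ketamine mice and 0.409 within saline mice (adjusted permutation p = 0.285 and 0.361). A level of Mroh7 particular to each mouse was thus not shown apart from the treatment difference. Ptgds gave r = 0.396 over 20 mice, -0.203 within ketamine mice and 0.297 within saline mice, none past the threshold (adjusted permutation p = 0.215 to 0.612). The difference between the ketamine effects of the regions had 0 adjusted calls of 29382 genes, with 910 (3.1%) at an unadjusted p under 0.05.

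Mice that had gone through 21 days of CSDS gave an independent set of animals with the same injection. In their mPFC, with 9 ketamine and 10 saline libraries, 0 genes passed the adjusted threshold and 1252, or 4.32%, had an unadjusted p under 0.05. Of the 24 leading genes, 10 had the same sign in CSDS mice, beside 44.3% of all genes, and 1 of them (AC115631.1, LFC 0.35 ± 0.16) had an unadjusted p under 0.05 in that direction. Uqcc3 had an unadjusted p under 0.05 in the opposite direction (LFC 0.14 ± 0.06). Ptgds had an LFC of -0.05 ± 0.30 in CSDS mice, Sphk1 0.31 ± 0.24, Gm21887 0.47 ± 0.24 and Npas4 -0.00 ± 0.18. Immediate early genes had a median LFC of 0.07 with 17 of 23 higher in mean, and in the vHipp of CTRL mice 0.05 with 13 of 23. The presynaptic list had a median of 0.01 with 10 of 18 higher in CSDS mice. The test of the difference between the ketamine effect in CTRL and in CSDS mice gave 0 adjusted calls with edgeR (smallest adjusted p = 0.771) and 1539 genes, or 5.31%, at an unadjusted p under 0.05.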

How the data were processed

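The authors made stranded mRNA libraries from punches, sequenced both ends and used GRCm38 as reference. The deposited counts are unnormalized integers for each gene in each library. The submitters' processing notes name bcl2fastq 2.20.0.422 of CASAVA. The aligner, the counting program and its use of strand are not given in the sources used here, so overlapping genes are uncertain. The methods state that degraded RNA and 1 outlying sample had been excluded. GENCODE release 21 gave a symbol for 55144 of 55471 identifiers, and 327 had none.

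Genes with a total count above 10 and detected in more than 3 mPFC libraries were tested, the thresholds of the study's methods. All 39 mPFC libraries entered a fit of 4 groups with edgeR 4.0.16 in R 4.3.3, TMM normalization, the quasi-likelihood test and Benjamini-Hochberg adjustment at 0.05, two-sided. CPM were computed with TMM factors. The study's model has the SB as a covariate. The labels do not give it, so runs of 4 consecutive mouse numbers stood in for it in other settings. Those settings also included DESeq2 1.42.0, limma-voom (limma 3.58.1), RLE factors, other filters, only the 20 CTRL libraries and each mouse left out. A fit without 5 libraries that stand apart was added after seeing the data. The difference between regions was fitted over 40 CTRL libraries of both regions. The mouse number pairs the regions, since same-numbered libraries come from the same animal, and the correlation of their deviations from the group means over 15261 genes had a median of 0.28 and a minimum of 0.145 over 20 mice, against -0.0145 for other mice. Single values per library were compared with permutation tests of 100000 resamples (scipy 1.17.1). The programs were tested on simulated data. The closest libraries of a group differed by 5.80 (ketamine) and 4.66 (saline) times counting noise, so none was a copy of another, and each was counted as a separate sample. This does not show that mice of the same SB are independent. Deviations from the group means had a median correlation of 0.107 between mice of the same run and other treatment, against -0.0248 across runs. The main fit and the permutation tests do not model the run.

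Genes are named by a rule: any gene with an adjusted p under 0.05, the 12 of smallest unadjusted p in each direction and the 5 of largest absolute LFC among genes with a mean of at least 1 CPM over the 20 libraries, list members with an unadjusted p under 0.05 or given as part of their list, and Gapdh and Rpl13. The comparison, the gene lists and the rule were chosen with earlier results of these data known. P-values measure the spread between mice that may differ in SB, cage and library preparation. Some members of the lists are not reported here by name.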

Additional observations from a re-analysis of the deposited data

Results flagged for a closer look

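In 15 of 100 groups of 10 values examined, a library lay far from the rest, by the gap to its nearest neighbour over the range of the group. About 1 in 20 groups, or 5, would do so by chance if the groups were independent and not chosen by their values. The groups here include the 5 genes of largest LFC, which single libraries can set, and marker sums that hold some of the same genes. The 15 is therefore a description and not a measured excess over 5. All 15 were high values. More than 1 value came from ketamine mice 34 and 23 and saline mice 22 and 24.

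Ketamine mouse 34 held 6.04 CPM of Muc3a (next 4.59), 24.3 CPM of Ttr (next 10.1) and 35.8 CPM summed over choroid plexus markers (next 19.1). Ketamine mouse 23 had the highest total count, 34135805, and the most genes detected, 28355 (next 26489). Saline mouse 22 held 9.40 CPM of H2-T22 (next 1.02) and 6834 CPM summed over oligodendrocyte markers (next 3165). Saline mouse 24 held 10.8 CPM of Ttr (next 1.26) and 22.0 CPM summed over choroid plexus markers (next 13.7). Saline mouse 30 held 327 CPM summed over meningeal markers (next 205).

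The other values were single genes. Ketamine mouse 21 held 2.65 CPM of Rps4x-ps (next 2.03), ketamine mouse 25 held 13.6 CPM of Oxt (next 6.25), and ketamine mouse 26 held 16.3 CPM of Ano2 (next 0.937). Among saline mice, mouse 29 held 1.63 CPM of Avp (next 0.825), and mouse 35 held 3.02 CPM of Ano2 (next 1.28).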

How the results depend on the processing

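The count of 0 adjusted calls held under 28 of 29 alternatives, among them each of 20 left-out mice (0 to 0). The exception was DESeq2 with the run of 4 mouse numbers, with 1 call, Gm30332, which had a read in 1 of the 20 CTRL mPFC libraries. Genes at an unadjusted p under 0.05 were 942 to 1492 over the left-out mice (the highest without ketamine mouse 23), 1639 of 38131 with no filter and 484 of 18194 with filterByExpr, which test more and fewer genes. The share of higher genes among them was 47.8%, 51.1% with RLE factors, 42.6% with limma-voom and 59.2% without saline mouse 24. The ketamine effect of mPFC minus vHipp had 0 adjusted calls also with the mouse as a replicate block (paired). Ano2 turned to -0.49 with DESeq2, where the cause was not tested, and lay between -0.49 (without ketamine mouse 26) and 1.78 over left-out mice. Among 36 genes run under the alternatives (the leading genes, those of largest LFC, list members with an unadjusted p under 0.05, Gapdh and Rpl13), the sign changed for Gapdh, Ano2 and Ttr (11 values in all). Other list members were run only as list medians. Gapdh, near 0, moved between -0.03 and 0.02. Depth limits genes under 1 CPM.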
